A study of Homo sapiens with 10 samples.

Results

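The 48 genes described here are interferon-stimulated genes, chosen by name from a list of genes known to be induced by interferon, among them IFI6. Of these, 47 had at least 1 named probe on the array and 46 had a probe with enough signal to be tested, among 17373 genes tested in all. Their mRNA was measured in MEG-01, a line of human megakaryoblastic leukemia cells, on 10 Agilent SurePrint G3 Human arrays in 1 color. MEG-01 cells were nucleofected with 200 nM of a pre-miRNA for miR-1225-3p on 5 arrays and with 200 nM of a scrambled negative control pre-miRNA on the other 5, and RNA was taken after 24 hours. The labels call the samples of each group biological replicates of 1 cell line, without saying whether the cultures were transfected on separate days, so that p-values describe the spread between these samples. The source label of the scrambled samples reads as untreated, whereas their titles and the study's methods describe transfection with the control. Both groups carry the nucleofection and a double-stranded RNA oligonucleotide, and no untransfected cells were analysed here.

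Interferons are secreted proteins that bind receptors on the cell surface and activate JAK kinases, which phosphorylate STAT transcription factors. STAT proteins join IRF9 to form ISGF3, a complex that binds the interferon-stimulated response element (ISRE) in promoters, while STAT dimers bind the gamma-activated site (GAS). The genes switched on in this way encode proteins that sense foreign RNA, degrade RNA, block translation or keep viruses from entering and leaving cells, and many are also expressed at a basal level without added interferon. Double-stranded RNA is itself able to start interferon production through RNA sensors.

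The transfected microRNA is shown to make its seed visible, the stretch of bases 2 to 8 by which a microRNA pairs with its target mRNAs. In the mature sequence from RefSeq (GRCh38.p14, chr16:2090195-2090216, minus strand, 22 bases) the capitals mark the seed.
hsa-miR-1225-3p: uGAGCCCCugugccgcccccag
Target sites of this seed in the interferon-stimulated genes were not searched for here.

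Promoter stretches that hold an ISRE core are shown, since this element marks many interferon-stimulated genes. Promoter sequences from RefSeq (GRCh38.p14), reaching from 250 bases before to 50 bases after the start of each gene, were matched for 39 of the 48 genes, and not for PML, DHX58, OASL, TRIM22, USP18, IFITM2, IFIT2, OAS2 and MX2. The ISRE core (GAAA, any 2 bases and GAAA again), searched on both strands with overlaps allowed, was present in 23 of the 39 promoters (59.0%) and in 1255 of all 35116 promoters of the same length (3.57%). The GAS core (TTC, any 3 bases and GAA) was present in 8 of the 39 (20.5%) and in 7.66% of all promoters. IFI6 held 3 ISRE cores. In the stretch from 176 to 64 bases before its start (chr1:27672256-27672368, minus strand) the capitals mark them.
IFI6 promoter: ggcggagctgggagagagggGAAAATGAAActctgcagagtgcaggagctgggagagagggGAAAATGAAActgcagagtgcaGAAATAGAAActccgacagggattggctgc
Windows of 30 bases, picked because they hold the core, are shown for some of the other genes that were lower (OAS3, LGALS3BP, IFI44L and ISG15) and for genes that were not called with all arrays (IFIT1 and BST2), with the ISRE core of either strand in capitals.
OAS3 (chr12:112938321-112938350, plus strand): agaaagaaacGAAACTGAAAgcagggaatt
LGALS3BP (chr17:78979962-78979991, minus strand): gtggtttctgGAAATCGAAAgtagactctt
IFI44L (chr1:78620274-78620303, plus strand): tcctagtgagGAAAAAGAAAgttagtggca
ISG15 (chr1:1013374-1013403, plus strand): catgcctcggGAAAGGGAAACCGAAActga
IFIT1 (chr10:89392497-89392526, plus strand): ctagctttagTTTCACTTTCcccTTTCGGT
BST2 (chr19:17405741-17405770, minus strand): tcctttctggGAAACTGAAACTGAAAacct
Of the 8 genes called lower by over 2-fold, UBE2L6, RSAD2 and ADAR had 0 matches to the core in this stretch and are not shown. The ISRE core thus occurs in promoters of genes that were lower and of genes that were not. Among genes with a matched promoter it was present in 11 of 16 called lower, 0 of 3 called higher and 10 of 18 not called in the comparison given next. These counts hold for the core with 2 bases between only. Repeats of GAAA with fewer bases between them, as in the promoters of XAF1, DDX58 and RSAD2, were not counted. IFIT1 and BST2 hold 2 matches each, as do OAS3 and IFI44L.

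The arrays varied in ways that bear on every gene below. Between 41.95% and 61.18% of the spots were well above background, and no spot was saturated. On the first principal component, with 69.6% of the variance, miR-1225-3p replicates 1 to 4 had scores from -133.4 to -52.97 and scrambled arrays from 48.66 to 79.86. The score of miR-1225-3p replicate 5, at 56.74, fell in the scrambled range. The main counts and the values of some single genes are therefore given with and without this array, and why it stood apart was not tested. Slide 1 held miR-1225-3p replicates 1 and 2 with scrambled replicates 1, 3 and 5, and slide 2 held the rest. Of the megakaryocyte markers, 8 were well above background on all 10 arrays, including ITGA2B, ITGB3, GATA1 and NFE2, while PF4 was so on none and VWF on 1 scrambled array. The mean log2 signal of the 10 megakaryocyte markers tested was between 7.60 and 8.36 on miR-1225-3p arrays and between 8.51 and 8.58 on scrambled arrays. Of these 10, 1 marker passed the filter on dim probes through the scrambled group only, so that its share of the lower mean was in part fixed by the filter. Called lower were 4 others of the 10 (ITGA2B, GFI1B, NFE2 and FLI1), of which 2 were also called lower with the 75th percentile as the scale. Among markers of other cells, the 5 erythroid markers were well above background on all arrays, with a mean log2 signal between 9.32 and 9.92 on miR-1225-3p arrays and between 9.32 and 9.78 on scrambled arrays, and GYPB was called higher at 1.06 (adjusted p = 0.0324 from limma). Of the B cell markers, MS4A1 was well above background on no array and CD79A on all 10, with a mean log2 signal of 10.44 against 11.92 (log2 fold change -1.47, not called at an adjusted p of 0.0626 from limma, and called lower without replicate 5 at -1.85). The 3 lymphocyte markers tested had a mean log2 signal between 8.81 and 9.73 on miR-1225-3p arrays and between 8.46 and 9.46 on scrambled arrays. The 4 monocyte markers had between 5.77 and 6.94 on miR-1225-3p arrays and between 5.65 and 6.14 on scrambled arrays, and FCGR3A was called higher. CD3E was also called higher, but was above background on 3 miR-1225-3p arrays and 1 scrambled array. It passed the filter on dim probes through the miR-1225-3p group only, so that its rise was in part fixed by the filter. After normexp background correction CD3E was not called, at 0.47 (adjusted p = 0.0526 from limma). The part of these markers in the results below was not tested, and in RNA from whole cultures fewer cells of a type and less RNA per cell cannot be told apart.

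The comparison asked which interferon-stimulated genes differed between miR-1225-3p and scrambled transfected cells. A gene was called when its adjusted p was under 0.05 in limma with Benjamini-Hochberg adjustment over all 17373 genes, and levels are log2 signals after cyclic loess normalization. Of 46 interferon-stimulated genes tested, 21 (45.7%) were called, against 35.1% of all genes. Lower in miR-1225-3p cells were 18 of the 46, against 18.1% of all genes, and 3 were higher, against 17.0% of all genes. A fall of over 2-fold was called for 8 of the 46 genes, beside 2029 of all 17373 genes. A rise of over 2-fold was called for none of the 46, beside 989 of all 17373 genes. The groups of 5 arrays did not overlap for 8 of the 46 genes, against 12.7% of all genes measured on all 10 arrays. The median log2 fold change was -0.30, beside -0.06 over all genes. One gene, IFIT3, passed the filter on dim probes through the scrambled group only, so that its fall was in part fixed by the filter. Of the other 45 genes 20 (44.4%) were called, 17 lower and 3 higher, with 7 lower by over 2-fold. In all, 38 of the 46 were well above background on all 10 arrays.

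**Figure D1:**
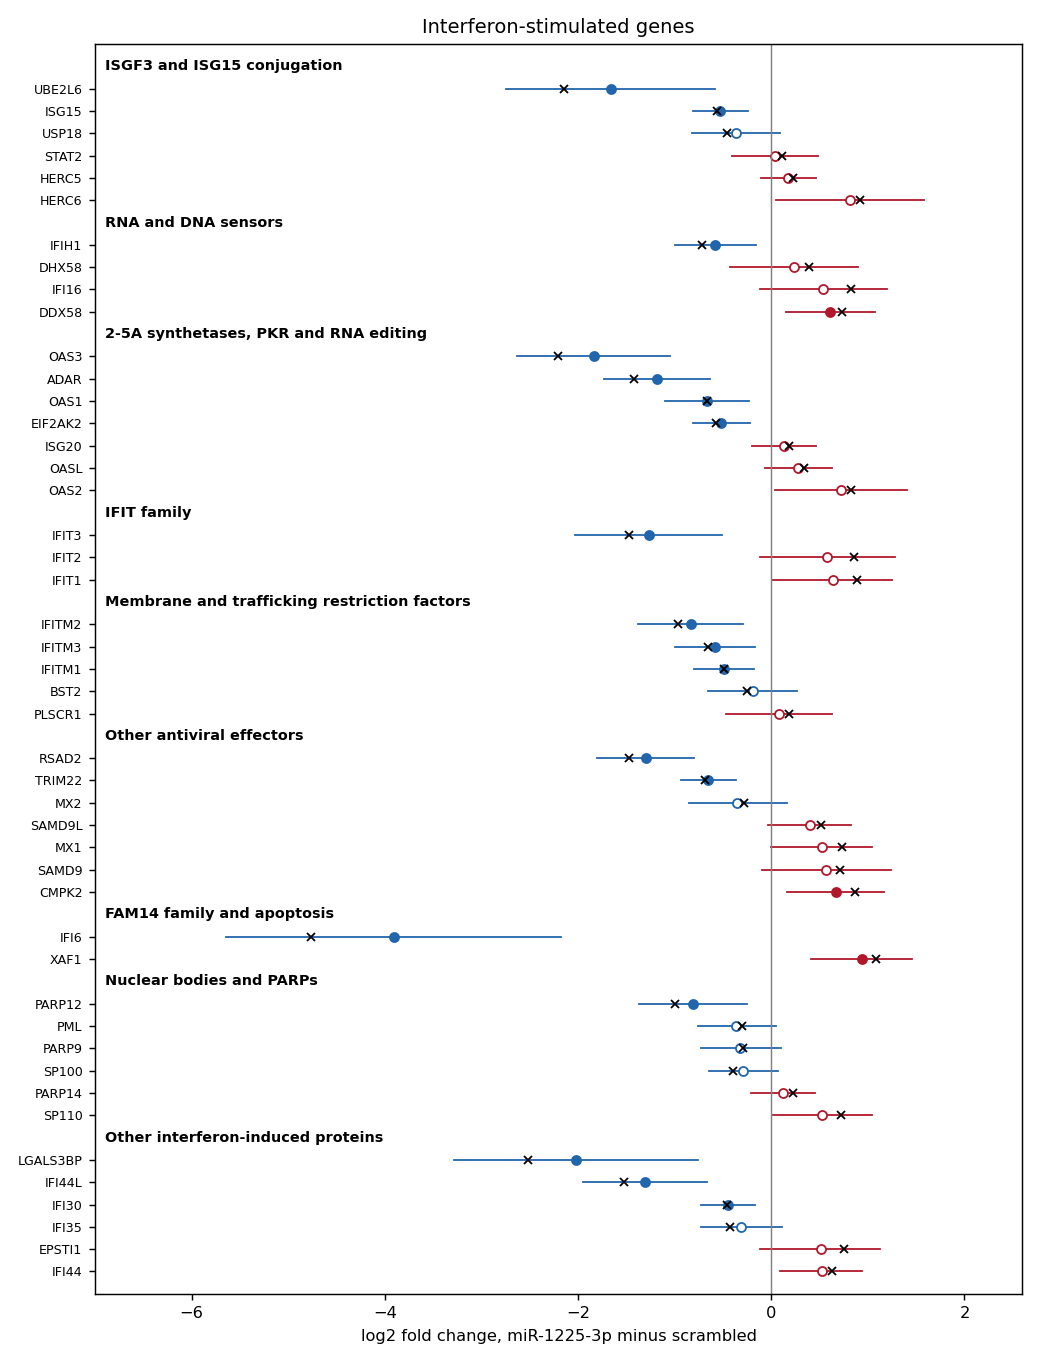
Log2 fold change (miR-1225-3p minus scrambled) of the 46 interferon-stimulated genes tested, grouped by role, with circles for the estimate from all 10 arrays (filled when called, open when not), lines for the 95% confidence interval and crosses for the estimate without miR-1225-3p replicate 5. IFI6 lies farthest to the left at -3.91, the 3 filled circles to the right are XAF1, CMPK2 and DDX58, and most crosses lie farther from 0 than their circles.

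Without miR-1225-3p replicate 5, 31 genes (67.4%) were called, against 55.4% of all genes. Of these 20 were lower, against 29.0% of all genes, and 11 were higher, against 26.4% of all genes, and the median was -0.29. When any other single array was left out, between 8 and 16 of the 46 genes were called, beside between 2138 and 4705 of all 17373 genes. On replicate 5 the signal of 24 of the 46 genes lay within the range of the scrambled arrays. With the slide as a block, 17 of the 46 genes were called, 2 higher and 15 lower, beside 5278 of all 17373 genes. Within slide 1 alone 13 of the 46 were called, 4 higher and 9 lower, beside 4502 of all 17373 genes. Within slide 2, which holds replicate 5, limma called 0 of the 46 and 0 of all genes, with 2 of the 46 at an unadjusted p under 0.05.

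The split between lower and higher genes depended on how the arrays were scaled. When each array was scaled to its 75th percentile in place of cyclic loess, the median log2 difference of all genes moved from -0.06 to 0.16, and the share of lower genes among all those called moved from 51.6% to 36.2%. With that scaling 16 interferon-stimulated genes were called, against 41.2% of all genes. Of these 11 were lower, against 14.9% of all genes, and 5 were higher, against 26.3% of all genes, and the median was 0.19. Of the 18 genes called lower after cyclic loess, 11 were also called lower with the 75th percentile, and all 3 called higher were also called higher.

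**Figure D2:**
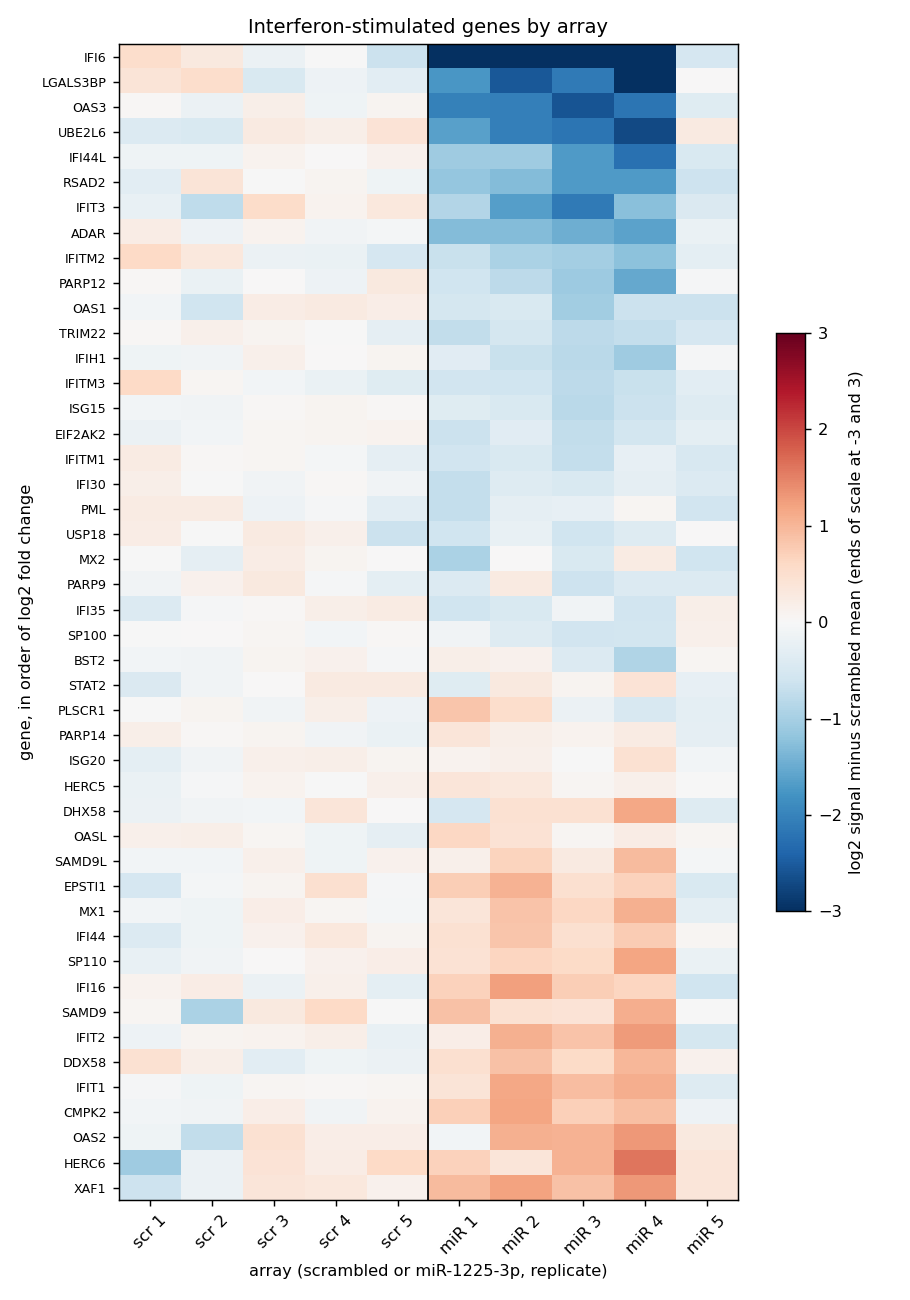
Log2 signal of each of the 46 interferon-stimulated genes (rows, in order of log2 fold change) on each of the 10 arrays (columns), minus the gene's mean on the scrambled arrays, with blue below and red above that mean and colors ending at -3 and 3. The column of miR-1225-3p replicate 5 is pale beside those of replicates 1 to 4, and IFI6, LGALS3BP, OAS3 and UBE2L6 are the darkest rows.

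IFI6, which encodes a small membrane protein of the FAM14 family known to oppose apoptosis, differed most among the interferon-stimulated genes. Its log2 signal was 8.01, 7.99, 7.73, 7.50 and 12.06 on miR-1225-3p replicates 1 to 5, and 13.10, 12.87, 12.39, 12.55 and 11.92 on scrambled replicates 1 to 5. Replicates 1 to 4 thus lay far below every scrambled array, and replicate 5 lay inside the scrambled range, so that the groups overlapped by this 1 array. The mean was 8.66 ± 1.91 (SD, n = 5) in miR-1225-3p cells and 12.57 ± 0.457 (SD, n = 5) in scrambled cells. The signal fell by 3.91 on the log2 scale, or 15-fold (95% confidence interval -5.64 to -2.18, adjusted p = 0.0139 from limma, p = 0.0159 from a two-sided exact permutation test). Without replicate 5 it fell by 4.76 on the log2 scale (adjusted p = 5.29e-06 from limma). The log2 fold change was -4.47 within slide 1, -3.62 within slide 2 and -3.46 with the 75th percentile. IFI27, the other member of the FAM14 family on the list, had no named probe. XAF1, a cofactor of apoptosis that binds the inhibitor XIAP, was the largest of the 3 rises. Its log2 signal was 5.42, 5.69, 5.35, 5.78 and 4.83 on the miR-1225-3p arrays and 3.85, 4.31, 4.83, 4.79 and 4.60 on the scrambled arrays, in order of replicate. All miR-1225-3p arrays were at or above the highest scrambled array, with replicate 5 and scrambled replicate 3 equal to 2 decimals. XAF1 rose by 0.94 on the log2 scale (95% confidence interval 0.41 to 1.46, adjusted p = 0.0199 from limma). The probe was dim, with 4 of 5 miR-1225-3p and 3 of 5 scrambled arrays above background, and after normexp background correction the value was 0.24 (adjusted p = 0.0482 from limma).

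**Figure D3:**
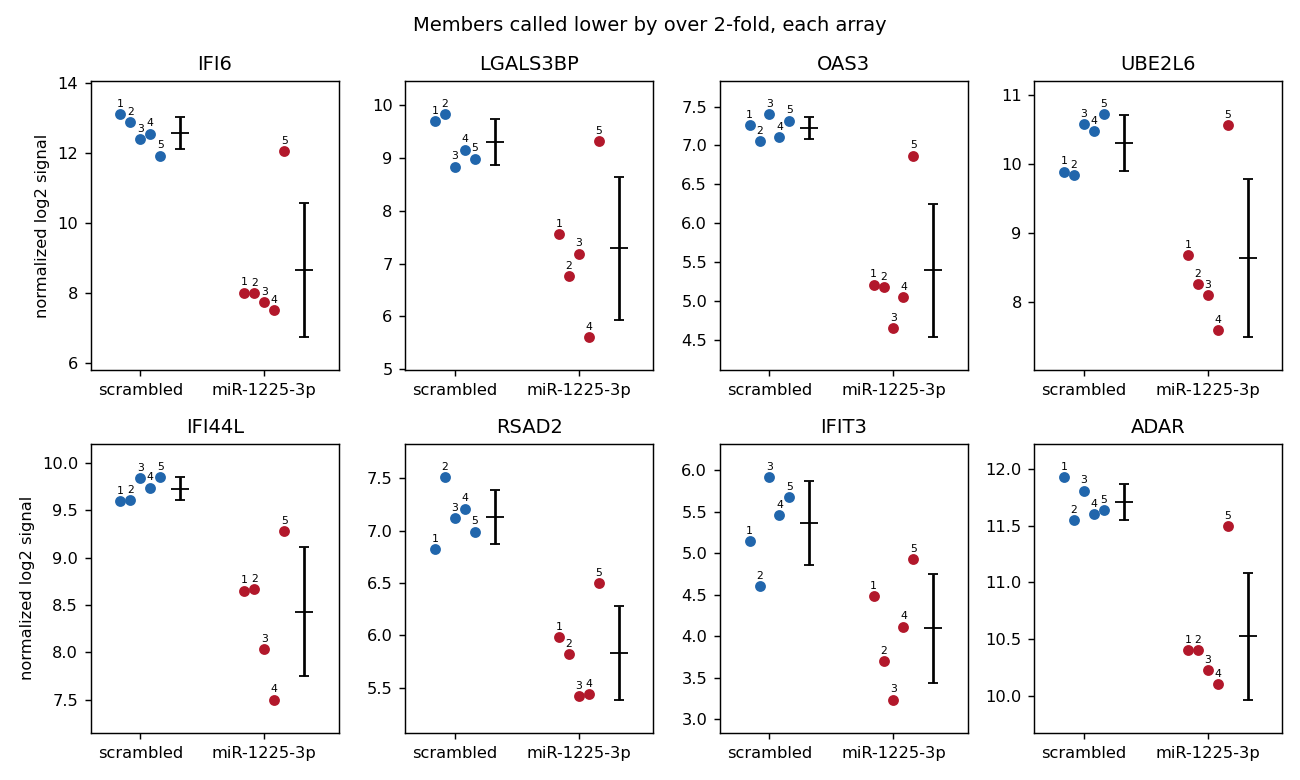
Normalized log2 signal on each array (points, numbered by replicate, scrambled in blue and miR-1225-3p in red) of the 8 genes called lower by over 2-fold, with black bars for the mean and SD of each group of 5 and a separate axis for each gene that does not start at 0. In every panel miR-1225-3p replicate 5 is the highest red point, and for IFI6, LGALS3BP, UBE2L6 and IFIT3 it reaches into the scrambled range.

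The next group comprised STAT2, the member of ISGF3 that is on the list, and the enzymes of ISG15, a ubiquitin-like protein that is attached to other proteins. Of the 6 genes, 2 were called, both lower. UBE2L6, the enzyme that conjugates ISG15, had log2 signals of 8.68, 8.25, 8.10, 7.59 and 10.57 on miR-1225-3p replicates 1 to 5, against 9.89, 9.84, 10.58, 10.48 and 10.72 on the scrambled arrays. Replicate 5 lay among the scrambled arrays and the other 4 below them. UBE2L6 fell by 1.66 on the log2 scale, or 3.17-fold (95% confidence interval -2.75 to -0.58, adjusted p = 0.0290 from limma), and by 2.15 without replicate 5. ISG15 itself was at 13.02, 12.91, 12.57, 12.74 and 12.99 against 13.30, 13.28, 13.41, 13.46 and 13.42 on the scrambled arrays. The groups did not overlap, replicate 5 included, but the difference was small. It fell by 0.53 on the log2 scale, or 1.44-fold (adjusted p = 0.0177 from limma, p = 0.00794 from a two-sided exact permutation test, the smallest that 5 arrays against 5 can give), and stood at 0.05 (adjusted p = 0.818 from limma) with the 75th percentile. STAT2 had a log2 fold change of 0.04 with a 95% confidence interval from -0.41 to 0.48. HERC5, the main ligase of ISG15 in human cells, had 0.17, its relative HERC6 had 0.81 (adjusted p = 0.0861 from limma), and USP18, which removes ISG15 and also dampens the interferon receptor, had -0.36. None of these 4 was called, and STAT2 took a negative sign in some alternatives.

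Among the 4 sensors of foreign nucleic acid, the 2 best known cytosolic RNA helicases were called in opposite directions. DDX58, named RIGI in RefSeq and known as the sensor of short RNA with a triphosphate end, had log2 signals of 6.15, 6.55, 6.25, 6.68 and 5.82 on miR-1225-3p arrays and 6.13, 5.86, 5.36, 5.54 and 5.51 on scrambled arrays. It rose by 0.61 on the log2 scale (95% confidence interval 0.15 to 1.07, adjusted p = 0.0434 from limma). Replicates 1 to 4 were above every scrambled array and replicate 5 was below 2 of them. IFIH1, the sensor MDA5 of long double-stranded RNA, was at 8.77, 8.44, 8.30, 8.05 and 9.06 against 8.98, 9.0, 9.25, 9.12 and 9.18. IFIH1 fell by 0.58 on the log2 scale (adjusted p = 0.0389 from limma), and had -0.30 (adjusted p = 0.154) with the 75th percentile. Both calls were lost with the slide as a block, at adjusted p = 0.0599 and 0.0588 from limma, and DDX58 had 0.29 (adjusted p = 0.0740) after normexp background correction. DHX58, the third helicase of this family and a modulator of the other two, had 0.24, and IFI16, a DNA sensor, had 0.54. IFI16 showed 1.08 within slide 1 and 0.08 within slide 2, and without replicate 5 it was called higher at 0.83 (adjusted p = 0.00277 from limma).

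The oligoadenylate synthetases make a short adenylate messenger that triggers RNA decay, and with the kinase PKR, the editing enzyme ADAR and the exonuclease ISG20 they act directly on RNA or its translation. Of these 7 genes 4 were called, all lower. OAS3 was at 5.21, 5.18, 4.65, 5.05 and 6.87 on miR-1225-3p arrays and at 7.26, 7.06, 7.40, 7.11 and 7.32 on scrambled arrays. Every miR-1225-3p array lay below every scrambled array, replicate 5 by the least. OAS3 fell by 1.84 on the log2 scale, or 3.57-fold (95% confidence interval -2.63 to -1.05, adjusted p = 0.0138 from limma, p = 0.00794 from a two-sided exact permutation test). Of the miR-1225-3p arrays 3 were above background at its probe, and with normexp background correction the value was -0.75 (adjusted p = 0.0124 from limma). OAS1, with signals of 5.15, 5.23, 4.64, 5.04 and 5.04 against 5.61, 5.08, 5.90, 5.95 and 5.89, fell by 0.67 on the log2 scale (adjusted p = 0.0284 from limma) and had -0.25 (adjusted p = 0.0884) with normexp. Scrambled replicate 2 lay within the miR-1225-3p range. OAS2, the third synthetase, had signals of 4.51, 5.65, 5.64, 5.89 and 4.88 against 4.45, 3.86, 5.05, 4.80 and 4.79, a log2 fold change of 0.72 that was not called (adjusted p = 0.0875 from limma). OASL, a relative without enzyme activity, had 0.28 and was not called.

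ADAR, which converts adenosine to inosine in double-stranded RNA, had log2 signals of 10.40, 10.40, 10.23, 10.10 and 11.50 on miR-1225-3p arrays and 11.93, 11.55, 11.81, 11.60 and 11.64 on scrambled arrays. The groups did not overlap, though replicate 5 came close to the lowest scrambled array. ADAR fell by 1.18 on the log2 scale, or 2.27-fold (95% confidence interval -1.73 to -0.63, adjusted p = 0.0142 from limma), by 1.42 without replicate 5, and had -0.70 (adjusted p = 0.0170) with the 75th percentile. EIF2AK2, the gene of PKR, which halts translation upon binding double-stranded RNA, was at 9.76, 10.06, 9.66, 9.85 and 10.10 against 10.22, 10.32, 10.47, 10.49 and 10.52. It fell by 0.52 on the log2 scale without overlap (adjusted p = 0.0205 from limma), but had -0.11 (adjusted p = 0.613) with the 75th percentile, and a second, dimmer probe had -0.18 (adjusted p = 0.463 over all kept probes). ISG20 had 0.13 and was not called, while with the 75th percentile it was called higher at 0.74.

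In the IFIT family, whose proteins bind foreign RNA and restrain its translation, 1 of 3 tested genes was called. IFIT3 was at 4.49, 3.70, 3.24, 4.12 and 4.93 on miR-1225-3p arrays and at 5.15, 4.61, 5.92, 5.46 and 5.68 on scrambled arrays. Scrambled replicate 2 lay below replicate 5, and otherwise the groups were apart. The probe was above background on 2 of 5 miR-1225-3p and 4 of 5 scrambled arrays, and miR-1225-3p replicates 2 and 3 lay under the lowest signal well above background on their arrays, so that the size of the difference was not well measured. The fitted value was -1.27 on the log2 scale (adjusted p = 0.0234 from limma), and IFIT3 had -0.34 (adjusted p = 0.0902) with normexp. IFIT1 had signals of 7.69, 8.47, 8.24, 8.41 and 6.92 against 7.27, 7.18, 7.37, 7.35 and 7.38. Replicates 1 to 4 lay above all scrambled arrays and replicate 5 below all of them. IFIT1 was not called on all arrays, at 0.64 (adjusted p = 0.0912 from limma), and rose by 0.89 without replicate 5 (adjusted p = 0.00171 from limma). IFIT2 had the same order of groups, with 6.57, 7.45, 7.24, 7.66 and 5.84 against 6.23, 6.46, 6.47, 6.55 and 6.16. Its log2 fold change was 0.58 (adjusted p = 0.165 from limma), or 0.86 without replicate 5 (adjusted p = 0.00787). A second, dimmer probe of IFIT2 had -0.75 (adjusted p = 0.149 over all kept probes). That probe was above background on 1 miR-1225-3p and 3 scrambled arrays, and passed the filter through the scrambled group only. Its lower value was thus in part fixed by the filter, and it does not settle the direction of IFIT2. IFIT5 was not tested, since 1 miR-1225-3p array and 2 scrambled arrays alone were above background at its probe.

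The proteins that act at membranes gave small differences. IFITM1, IFITM2 and IFITM3, which hinder the fusion of viruses with cell membranes, fell by 0.49, 0.83 and 0.58 on the log2 scale (adjusted p = 0.0265, 0.0290 and 0.0370 from limma), but had 0.15, -0.28 and -0.00 with the 75th percentile and were then not called. With the slide as a block IFITM3 had -0.57 and was not called (adjusted p = 0.0556 from limma). The log2 signal of IFITM2 was 12.37, 12.10, 12.02, 11.81 and 12.75 on miR-1225-3p arrays and 13.63, 13.35, 12.86, 12.84 and 12.53 on scrambled arrays. Only replicate 5 and scrambled replicate 5 overlapped. The sequences of the 3 IFITM genes are similar, and signal shared between their probes cannot be told apart here. A second probe of IFITM1 had -0.53 (adjusted p = 0.0372 over all kept probes). BST2, or tetherin, which holds budding viruses at the cell surface, was not called at -0.19 with a 95% confidence interval from -0.65 to 0.27. PLSCR1, a phospholipid scramblase with antiviral activity, was not called at 0.08, with 0.77 within slide 1 and -0.45 within slide 2.

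Among 7 other antiviral effectors, RSAD2 and TRIM22 were called lower and CMPK2 higher. RSAD2, or viperin, which makes a nucleotide that ends viral RNA chains, had log2 signals of 5.98, 5.82, 5.42, 5.44 and 6.50 on miR-1225-3p arrays and 6.82, 7.51, 7.12, 7.21 and 6.99 on scrambled arrays. No miR-1225-3p array reached the lowest scrambled array. RSAD2 fell by 1.30 on the log2 scale, or 2.46-fold (95% confidence interval -1.80 to -0.80, adjusted p = 0.0136 from limma, p = 0.00794 from a two-sided exact permutation test), had -1.47 without replicate 5, and had -0.64 (adjusted p = 0.0102) with normexp. CMPK2, a mitochondrial nucleotide kinase, was at 6.57, 7.04, 6.59, 6.77 and 5.70 against 5.78, 5.75, 6.06, 5.77 and 5.96. All miR-1225-3p arrays but replicate 5 exceeded the scrambled arrays, and replicate 5 was the lowest of all 10. CMPK2 rose by 0.67 on the log2 scale (95% confidence interval 0.16 to 1.17, adjusted p = 0.0447 from limma), or by 0.87 without replicate 5, and had 0.29 (adjusted p = 0.0888) with normexp. TRIM22, a ubiquitin ligase that restricts several viruses, was at 7.14, 7.35, 7.09, 7.17 and 7.38 against 7.92, 8.02, 7.97, 7.87 and 7.61. It fell by 0.65 on the log2 scale without overlap (adjusted p = 0.0138 from limma), and replicate 5 was here close to the other miR-1225-3p arrays. The GTPases MX1 and MX2, which trap viral nucleocapsids, had 0.52 and -0.35, and SAMD9 and SAMD9L, which block poxviruses, had 0.57 and 0.40. None of these 4 was called on all arrays. MX1, at 0.73 (adjusted p = 0.00385 from limma), and SAMD9L, at 0.51 (adjusted p = 0.0310), were called higher without replicate 5.

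**Figure D4:**
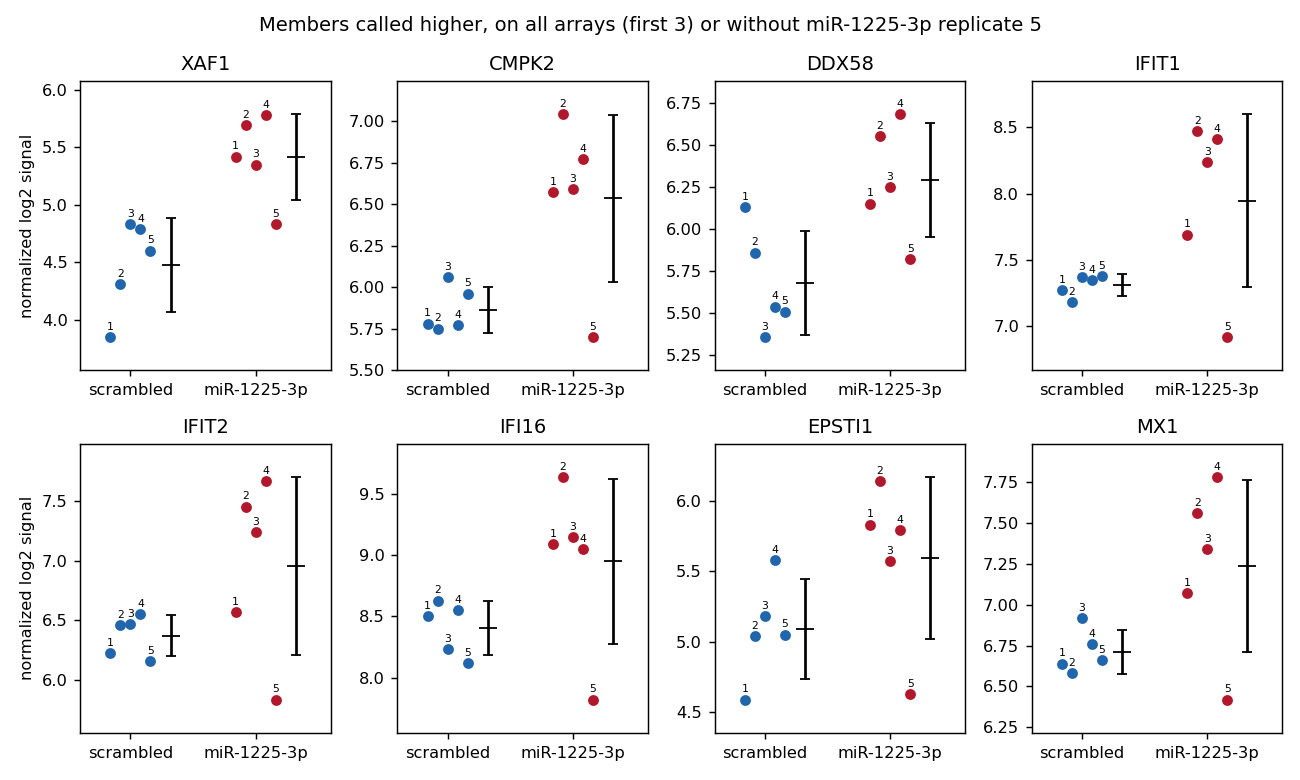
Normalized log2 signal on each array (points, numbered by replicate, scrambled in blue and miR-1225-3p in red) of the 3 genes called higher on all arrays (XAF1, CMPK2, DDX58) and the 5 with the highest log2 fold change among those called higher only without miR-1225-3p replicate 5, with black bars for the mean and SD of each group of 5 and axes that do not start at 0. In every panel replicate 5 is the lowest red point, and for CMPK2, IFIT1, IFIT2, IFI16 and MX1 it lies below all 5 scrambled points.

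Of the 6 genes of nuclear bodies and of the PARP family, PARP12 alone was called, and it fell. PARP12, a mono-ADP-ribosyltransferase that inhibits translation, was at 7.76, 7.57, 7.28, 6.84 and 8.34 on miR-1225-3p arrays and at 8.41, 8.17, 8.37, 8.21 and 8.66 on scrambled arrays. Replicate 5 lay among the scrambled arrays and the others below them. It fell by 0.81 on the log2 scale (adjusted p = 0.0344 from limma), or by 1.00 without replicate 5 (adjusted p = 0.00230), and had an adjusted p of 0.0522 from limma with the slide as a block. PARP9 and PARP14, relatives of PARP12, had -0.32 and 0.12 and were not called. SP100 and PML, the scaffold proteins of PML nuclear bodies, had -0.29 and -0.36 by their brightest probes and were not called. Both have a dimmer probe that was higher, at 0.89 for SP100 (adjusted p = 0.0179 from limma over all kept probes) and 0.85 for PML (adjusted p = 0.0303), so no single direction can be given for either gene. SP110, a nuclear body protein related to SP100, had 0.53 and was called higher without replicate 5 at 0.72 (adjusted p = 0.00626 from limma).

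Among 6 other interferon-induced genes, 3 were called, all lower. LGALS3BP, a secreted glycoprotein that binds galectins, had log2 signals of 7.56, 6.76, 7.19, 5.61 and 9.32 on miR-1225-3p arrays and 9.70, 9.83, 8.84, 9.16 and 8.99 on scrambled arrays. Replicate 5 was above 3 of the scrambled arrays and the other 4 were below all of them. LGALS3BP fell by 2.02 on the log2 scale, or 4.05-fold (95% confidence interval -3.28 to -0.76, adjusted p = 0.0259 from limma), and had -2.52 without replicate 5 and -2.01 and -2.12 within slides 1 and 2. IFI44L, which feeds back on interferon responses, was at 8.65, 8.67, 8.03, 7.50 and 9.28 against 9.60, 9.61, 9.84, 9.74 and 9.85. All miR-1225-3p arrays were below all scrambled arrays. IFI44L fell by 1.31 on the log2 scale, or 2.47-fold (95% confidence interval -1.95 to -0.67, adjusted p = 0.0153 from limma, p = 0.00794 from a two-sided exact permutation test). Its paralog IFI44 was at 11.21, 11.59, 11.25, 11.52 and 10.81 against 10.36, 10.63, 10.88, 11.09 and 10.85, a log2 fold change of 0.52 that was not called (adjusted p = 0.0565 from limma) and was called higher without replicate 5 at 0.63 (adjusted p = 0.0104) and with the 75th percentile at 0.99 (adjusted p = 0.0216). IFI30, the lysosomal thiol reductase GILT of antigen processing, fell by 0.45 on the log2 scale without overlap (adjusted p = 0.0260 from limma), but had -0.07 (adjusted p = 0.757) with the 75th percentile. IFI35 had -0.31 and EPSTI1 had 0.51, and neither was called on all arrays. Without replicate 5 IFI35 was called lower at -0.43 (adjusted p = 0.0481 from limma) and EPSTI1 higher at 0.75 (adjusted p = 0.0112).

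The pathway upstream of these genes was described from a separate list of 51 ligands, receptors, signalling proteins and regulators, of which 47 had a named probe and 27 were tested. Of the 27, 15 were called, against 35.1% of all genes. Higher were 4 and lower were 11, against 17.0% and 18.1% of all genes. IFNL2, IFNGR2, TYK2 and PIAS4 passed the filter on dim probes through the scrambled group only, and of the other 23 genes 12 (52.2%) were called, 4 higher and 8 lower. Of 21 interferon genes 17 had a probe, and IFNB1, IFNG, IFNL1, IFNE, IFNW1 and most IFNA genes were well above background on no array. The 3 tested were IFNK, IFNA4 and IFNL2. IFNK, a type I interferon known from keratinocytes, was at 9.91, 9.63, 9.71, 9.80 and 8.83 on miR-1225-3p arrays and at 8.57, 8.59, 8.57, 8.57 and 8.84 on scrambled arrays. Apart from replicate 5 these were above all scrambled arrays, and IFNK rose by 0.95 on the log2 scale (adjusted p = 0.0142 from limma). IFNA4 and IFNL2, each with near-identical relatives whose transcripts could add to its signal, had 0.07 and -0.21 and were not called.

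Both chains of the receptor for interferon gamma were lower. IFNGR2 was at 4.04, 3.29, 3.41, 2.78 and 8.85 on miR-1225-3p arrays, of which 2 were well above background, and at 9.04, 9.07, 8.99, 8.85 and 8.43 on scrambled arrays. Replicates 1 to 4 lay far below the scrambled arrays and replicate 5 lay among them. Replicates 2 to 4 were under the lowest signal well above background on their arrays, so that the size of the difference was not well measured. The fitted value of IFNGR2 was -4.40 on the log2 scale (adjusted p = 0.0156 from limma), and it had -2.0 (adjusted p = 0.0146) with normexp. IFNGR1 was at 8.54, 8.24, 7.95, 7.54 and 10.76 against 10.75, 10.87, 10.85, 10.83 and 10.80, and fell by 2.22 on the log2 scale, or 4.65-fold (adjusted p = 0.0159 from limma). IL10RB, a chain shared by the receptors for interferon lambda and interleukin 10, fell by 0.86 on the log2 scale (adjusted p = 0.0428 from limma), but was not called with the slide as a block (adjusted p = 0.0642) or with normexp, at -0.44 (adjusted p = 0.0758). The chains of the type I receptor, IFNAR1 and IFNAR2, had -0.08 with a 95% confidence interval from -0.48 to 0.33 and 0.22 with one from -0.12 to 0.56, and neither was called. IFNAR2 was called higher with the 75th percentile, at 0.72. IFNLR1 was well above background on no array.

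Among the signalling genes, IRF9 and STAT3 were lower and JAK2 was higher, and TYK2 was dim. TYK2, the kinase bound to IFNAR1, was at 4.49, 4.06, 4.09, 2.77 and 7.65 on miR-1225-3p arrays, of which 2 were well above background, and at 6.37, 6.33, 7.69, 7.26 and 8.30 on scrambled arrays. Its fitted value was -2.58 on the log2 scale (adjusted p = 0.0335 from limma), of which the size was not well measured, and with normexp it was not called, at -0.96 (adjusted p = 0.0838). IRF9, the DNA-binding member of ISGF3, was at 9.08, 8.18, 7.02, 6.05 and 9.57 against 9.94, 9.78, 9.64, 9.53 and 9.48, and fell by 1.69 on the log2 scale (adjusted p = 0.0463 from limma), but was not called with the slide as a block, at -1.58 (adjusted p = 0.0697). STAT3, the STAT protein of interleukin 6 signalling, fell by 1.22 on the log2 scale (adjusted p = 0.0242 from limma). JAK1 was at 6.77, 6.45, 6.24, 4.5 and 7.79 against 7.72, 7.74, 7.67, 7.51 and 7.53, a log2 fold change of -1.28 that was not called (adjusted p = 0.0599 from limma) and was called lower without replicate 5 at -1.64 (adjusted p = 0.00718). JAK2, which serves the interferon gamma receptor, rose by 0.70 on the log2 scale without overlap (adjusted p = 0.0212 from limma).

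**Figure D5:**
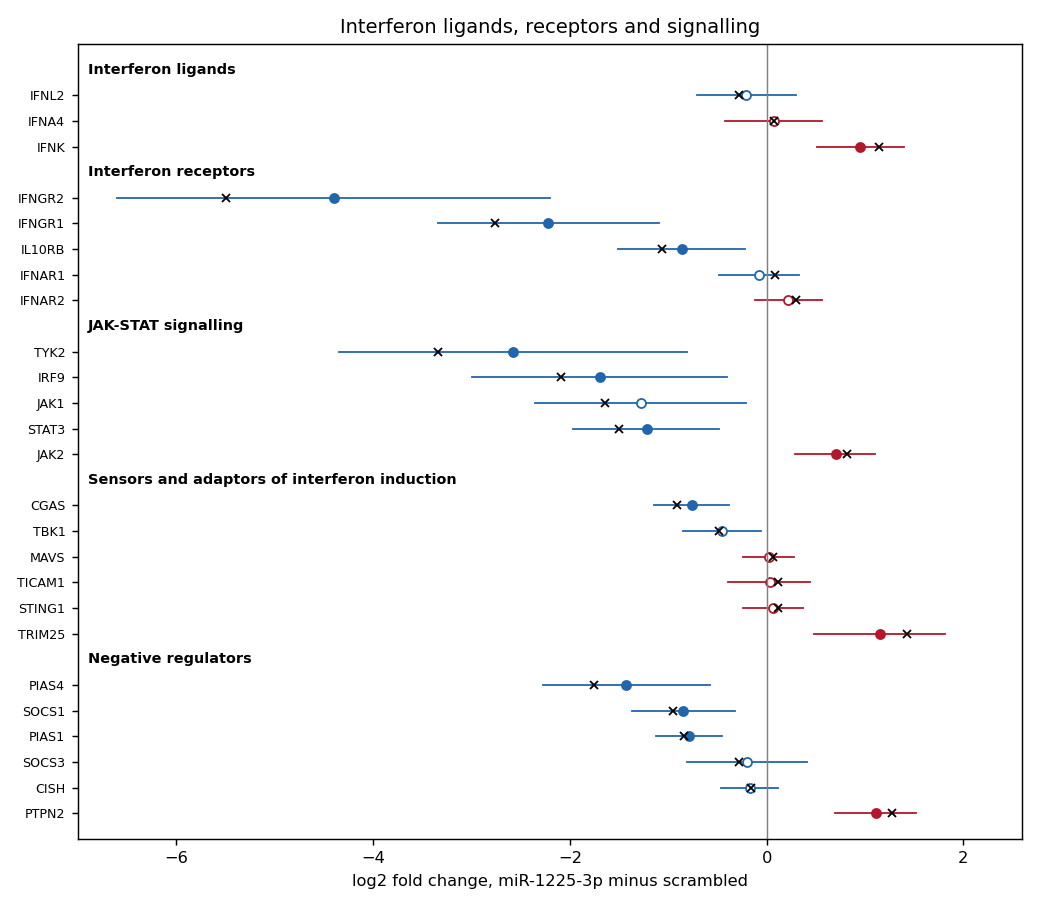
Log2 fold change (miR-1225-3p minus scrambled) of 25 of the 27 tested genes for interferon ligands, receptors, signalling, induction and negative regulation, with circles for the estimate from all 10 arrays (filled when called, open when not), lines for the 95% confidence interval and crosses for the estimate without miR-1225-3p replicate 5. IFNGR2 at -4.40, TYK2 at -2.58 and IFNGR1 at -2.22 lie farthest to the left, the first 2 of them from probes dim in 3 miR-1225-3p samples, and TRIM25, PTPN2, IFNK and JAK2 are the filled circles to the right.

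Among the genes for interferon induction, CGAS and TRIM25 were called. CGAS, the sensor of cytosolic DNA, fell by 0.76 on the log2 scale without overlap (adjusted p = 0.0156 from limma). TRIM25, a ubiquitin ligase known as an activator of the sensor DDX58, rose by 1.15, or 2.21-fold (adjusted p = 0.0217 from limma). For TRIM25 replicate 5, at 10.65, lay within the scrambled range of 10.41 to 10.80, and without this array the rise was 1.43 (adjusted p = 0.000261 from limma). The adaptors MAVS, STING1 and TICAM1 had 0.02, 0.06 and 0.03 by their brightest probes and were not called, with 95% confidence intervals within -0.39 and 0.44. Dimmer probes had 0.35 and -0.46 for MAVS (adjusted p = 0.274 and 0.165 from limma over all kept probes). For TICAM1 a dimmer probe had -0.46 (adjusted p = 0.302). The kinase TBK1 was not called at -0.45 (adjusted p = 0.0681 from limma). The sensors TLR3, TLR7 and TLR8 were well above background on no array. Of the 6 negative regulators 4 were called. SOCS1, which blocks JAK kinases, fell by 0.85, and PIAS1, which restrains STAT proteins, fell by 0.79 on the log2 scale (adjusted p = 0.0257 and 0.0138 from limma). The probe of PIAS4, a relative of PIAS1, was above background on 2 of 5 miR-1225-3p and 3 of 5 scrambled arrays. Its fitted value was -1.43 (adjusted p = 0.0226 from limma), and with normexp it was not called, at -0.28 (adjusted p = 0.0687). SOCS1 was not called with the 75th percentile, at -0.35 (adjusted p = 0.183). PTPN2, a phosphatase of JAK and STAT proteins, rose by 1.11 on the log2 scale by its brightest probe, or 2.15-fold, without overlap (adjusted p = 0.0136 from limma). A dimmer probe of PTPN2 had 0.91 (adjusted p = 0.0152 from limma over all kept probes). Another dimmer probe, well above background on every array, had 0.07 (adjusted p = 0.715), so that the rise of PTPN2 depended on the probe. SOCS3 and CISH had -0.20 and -0.17 and were not called. Without replicate 5, 16 of the 27 pathway genes were called, against 55.4% of all genes. Of these 4 were higher and 12 lower, against 26.4% and 29.0% of all genes.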

How the data were processed

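The labels gave 5 miR-1225-3p and 5 scrambled samples of MEG-01 cells, each on 1 Cy3 array. Per the file headers, Agilent Feature Extraction 10.7.3.1 made the scanner files, whose processed signal is an intensity after background correction. The authors also deposited a table of log2 values for 29271 probes, which the authors normalized by cyclic loess. From the intensities, 4259 control spots were left out, outlier-flagged spots were set missing, and cyclic loess (R 4.3.3, limma 3.58.1, 3 iterations) was applied to log2 signals, as the study's methods state. Replicate spots were averaged by probe. A probe was kept when 3 or more arrays of 1 group were well above background (20640 of 42405), and 24910 probes were named by accession from RefSeq (GRCh38.p14). A gene is represented by its brightest kept probe, and levels are not compared between probes. Groups were compared by limma's lmFit and eBayes over 17373 genes, at an adjusted p (Benjamini-Hochberg) under 0.05, and single genes also by an exact permutation test. The fit was tested on simulated data. Alternatives covered normalization, background correction, filters, the probe for a gene, the test, slide and replicate blocks, and leaving out each array. Normexp was run on the median signal with an offset of 50. Values on every array are given for genes called with a fold change over 2-fold, their relatives and others described in detail. The genes and lists were chosen with earlier results of these data known. Some genes of the pathway and marker lists are counted but not reported by name here. The number of arrays limits the precision.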

Additional observations from a re-analysis of the deposited data

Results flagged for a closer look

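For the 8 genes called lower by over 2-fold, each group of 5 arrays was searched for 1 array standing away from the rest, which makes 16 groups. An array was flagged when its gap to the nearest value exceeded 0.71 of the range of its group (Dixon's ratio). Such an array was found in 3 of the 16 groups, where chance would give 0.8, and in all 3 it was miR-1225-3p replicate 5. The groups are not separate trials, since all come from the same 10 arrays. The log2 signals concerned were 12.06 for IFI6, 6.87 for OAS3 and 11.50 for ADAR, each the highest of its group.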

How the results depend on the processing

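Among the 46 interferon-stimulated genes, 4 were called without normalization between arrays (4 lower, 0 higher), 11 without a filter on dim probes (10 lower, 1 higher), 35 with array weights (14 higher) and 13 within slide 1 (9 lower). Higher genes numbered 1 with normexp, 5 with the probe of smallest p and 1 by the methods' t-test, while with the 75th percentile there were 11 lower and 5 higher genes and a median log2 fold change of 0.19. Genes called in all numbered 1267 without normalization, 3411 when dim probes were kept, 11753 with array weights and 4502 within slide 1, and 2 pathway genes were called without normalization. Within slide 2 limma called 0 interferon-stimulated genes, 0 lower and 0 higher, 0 pathway genes and 0 of all genes, with 2 interferon-stimulated genes and 1220 genes in all at an unadjusted p under 0.05. Fits within either slide used fewer arrays than the main fit, and slide 2 held miR-1225-3p replicate 5. Why the counts differed was not tested. Leaving out each array gave between 8 and 31 interferon-stimulated genes called, 7 to 20 lower and 0 to 11 higher, with a median between -0.29 and -0.23, and between 2138 and 9624 genes and 7 and 16 pathway genes called. Of the interferon-stimulated genes, 8 were called without miR-1225-3p replicate 2, replicate 3 or scrambled replicate 4, 13 without miR-1225-3p replicate 4, 12 without scrambled replicate 1, 2 or 3, and 31 without miR-1225-3p replicate 5.

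Arrays sharing a replicate number deviated from their groups with correlations of -0.217, -0.0756, -0.401, 0.0722 and -0.152. The labels do not say whether such arrays were transfected together. The correlations cannot decide it, since miR-1225-3p replicate 5 stood far from the rest of its group. The main fit held no replicate block. A fit with a replicate block called 0 interferon-stimulated genes, 0 lower and 0 higher, 0 pathway genes and 0 of all genes, with 24 interferon-stimulated genes and 7472 genes in all at an unadjusted p under 0.05.

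IFI6 and RSAD2 kept their direction and call in 24 of 26 alternatives each, ADAR and IFI44L in 23 of 26. Signs changed for ISG15 (0.05), IFITM1 (0.15), BST2 (0.37), SP100 (0.30) and PML (0.16) with the 75th percentile. Without normalization they changed for HERC5 (-0.19), DHX58 (-0.015), OASL (-0.18), PLSCR1 (-0.038) and EPSTI1 (-0.0039). STAT2 had -0.022 with normexp and -0.039 with the authors' values. The mean of probes gave -0.084 for IFIT2, 0.19 for SP100 and 0.095 for PML, and the probe of smallest p gave -0.75, 0.89 and 0.85. For IFIT2 both values draw on the dimmer probe that passed the filter through the scrambled group only. BST2 had 0.17 within slide 1 and PLSCR1 -0.45 within slide 2. When each array was left out, STAT2 ranged from -0.072 to 0.14 and PLSCR1 from -0.10 to 0.22.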

Other observations

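Several of the interferon-stimulated genes lie next to each other in the genome without another protein-coding gene between them in the RefSeq table. There were 11 such pairs, of which 10 had both genes tested, and in 5 of the 10 the log2 fold changes had opposite signs. In 1 pair both genes were called and in opposite directions, with CMPK2 at 0.67 and RSAD2 at -1.30 on chromosome 2. The other pairs with opposite signs, in each of which 1 gene or neither was called, were IFI44L (-1.31) and IFI44 (0.52), IFIT2 (0.58) and IFIT3 (-1.27), OAS3 (-1.84) and OAS2 (0.72), and MX2 (-0.35) and MX1 (0.52). The pairs IFITM2 and IFITM1, IFITM1 and IFITM3, and OAS1 and OAS3 were called lower at both genes. Overlap between the transcripts of these neighbours was not tested. The second probe of IFIT2, with a negative sign, and the probe of IFIT3 passed the filter on dim probes through the scrambled group only.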
